A study of Homo sapiens with 6 samples.

Results

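The 10 genes described here are the transcriptional coactivators YAP1 and WWTR1 (which encodes TAZ), the DNA-binding TEAD factors TEAD1, TEAD2 and TEAD4, and the target genes CTGF, CYR61, ANKRD1, AMOTL2 and LATS2. They were taken by symbol from a table of 58830 genes, in which CTGF and CYR61 carry their old names (CCN2 and CCN1 today), and each of the 10 matched 1 row. Total RNA had been sequenced from definitive endoderm, the source of gut, liver and pancreas, grown out of the human embryonic stem cell line HuES8. There were 3 libraries of endoderm with GATA6-AS1 knockdown (KD) and 3 of wild-type endoderm (DE). The protocol, the same for all 6 libraries, gave 100 ng/mL Activin A with 2.5 µM CHIR (it blocks GSK3 and so turns on Wnt signalling) during 1 day, followed by 2 days of Activin A without CHIR, in DMEM-F12 with 0.2% BSA. GATA6-AS1 is the antisense RNA next to GATA6, a transcription factor of endoderm. The means of knockdown, any control construct in the DE cells, and whether replicates were separate cultures were not given in the sources used here. All p-values thus set a group difference against the spread between these libraries, and that spread may be technical.

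The Hippo pathway is a kinase cascade in which MST kinases activate LATS kinases, and LATS phosphorylates YAP and TAZ so that they are kept out of the nucleus. When the cascade is off, YAP and TAZ enter the nucleus and, having no DNA-binding domain of their own, act through TEAD factors. LATS2 and AMOTL2 are both restraints on YAP and targets of it. YAP activity is set largely by phosphorylation and location, which RNA levels do not report. In human stem cells the pathway is known for its part in the choice between self-renewal and differentiation.

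The TEAD binding motif GGAATG was searched on both strands in the 250 bases before the RefSeq gene start (GRCh38.p14). The promoter table matched 7 of the 10 genes, all but TEAD1, TEAD4 and CYR61. CTGF held 3 copies, ANKRD1 held 2 and YAP1 held 1, and WWTR1, TEAD2, AMOTL2 and LATS2 held none in this window. Each gene was searched at 1 start, and other starts were not. The WWTR1 window, chr3:149703274-149703523, lies inside the gene as GENCODE 29 places it (chr3:149517235-149736714). The ANKRD1 window reaches 189 bases into its gene, with the second copy there, and the CTGF window 1 base. Those of AMOTL2 and TEAD2 also lie partly inside their genes. For YAP1, TEAD2 and LATS2 the 50 bases after the start were not found in a GENCODE 29 transcript. Of all 27305 promoters, 11.9% held at least 1 copy. The sequences of ANKRD1 and CTGF are shown because these target genes had the lowest log2 changes in KD of the 10. Capitals mark GGAATG, and bases that GENCODE 29 places in an exon are left out apart from the 26 bases around the second ANKRD1 copy. The ANKRD1 stretches are chr10:90921277-90921337 and chr10:90921200-90921225, and the CTGF stretch is chr6:131951374-131951622, all on the minus strand and written 5′ to 3′ along the gene.
ANKRD1 upstream: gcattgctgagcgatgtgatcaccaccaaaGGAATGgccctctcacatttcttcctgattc
ANKRD1 site: cactgagtctGGAATGaaaattcacc
CTGF upstream: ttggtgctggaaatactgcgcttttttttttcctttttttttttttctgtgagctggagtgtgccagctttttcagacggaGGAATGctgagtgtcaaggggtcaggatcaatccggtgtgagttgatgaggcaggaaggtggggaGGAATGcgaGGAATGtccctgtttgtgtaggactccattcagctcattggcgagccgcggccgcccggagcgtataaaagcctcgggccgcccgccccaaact
The copies began 220 and 128 bases before the RefSeq start of ANKRD1 and 169, 104 and 95 bases before that of CTGF. The AP-1 motif TGANTCA, counted once where both strands match, was present in ANKRD1 alone of the 7, from 195 to 189 bases before its start, and in 6.60% of all promoters. No CArG box, the motif of the actin-responsive factor SRF, was present in the 7 windows, against 1.14% of all promoters. A match is a description of these letters and not of a factor bound there.

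Values were TPM, read counts scaled by the authors for gene length and library total, so levels can be compared between genes. TPM keep no depth, and the reads behind them, estimated from the steps between low values, came to between 18640828 and 24510636 for the KD libraries and between 18991008 and 23759566 for the DE libraries. Among the 10 genes the estimated reads of a library ran from 92 for ANKRD1 in KD replicate 2 to 7371 for AMOTL2 in DE replicate 1. RNA of the mitochondrial genome took 28.3%, 28.8% and 36.2% of TPM in KD replicates 1 to 3 and 28.5%, 24.6% and 38.04% in DE replicates 1 to 3, so the third library stood apart in both groups. GATA6-AS1 had 180, 163 and 126 TPM in KD and 389, 421 and 313 TPM in DE, a fall in the labelled direction (log2 change -1.26, limma adjusted p = 0.0128), with 7.56% of its exon length shared with GATA6 on the other strand. It did not pass without KD replicate 2 (limma adjusted p = 0.0612) or DE replicate 1 (0.0717). GATA6 had a log2 change of -0.66 (limma adjusted p = 0.0648). Of 10 definitive endoderm markers all 10 were tested. FOXA2, GATA4, CXCR4, GSC and CER1 fell in KD. SOX17 averaged 265 ± 73.3 TPM in KD and 551 ± 115 TPM in DE (SD, n = 3 each) and did not pass (limma adjusted p = 0.0530). Of 8 pluripotency markers 5 rose in KD, among them SOX2, POU5F1 and NANOG. So 50% of the endoderm markers passed as lower, beside 1.5% of all genes tested. Of the pluripotency markers 62.5% passed as higher, beside 1.77% of all genes tested.

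Of the 10 genes, ANKRD1 fell in KD and the other 9 did not pass. Of all 17711 genes tested 3.27% passed, 1.77% as higher and 1.5% as lower in KD. All 10 genes passed the filter of at least 1 TPM in at least 3 libraries. The median log2 change of the 10 was -0.06, beside a median of -0.0050 over all genes tested, with 2 of the 10 above 0 and 8 below. The ranges of KD and DE did not overlap for ANKRD1, AMOTL2 and TEAD4, 3 of the 10, beside 20.8% of all genes tested (10.1% higher and 10.7% lower in KD). With the replicate number as a block, 5 of the 10 passed, TEAD4 higher in KD and ANKRD1, AMOTL2, CTGF and LATS2 lower, beside 12.5% of all genes (5.88% higher and 6.62% lower).

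**Figure D1:**
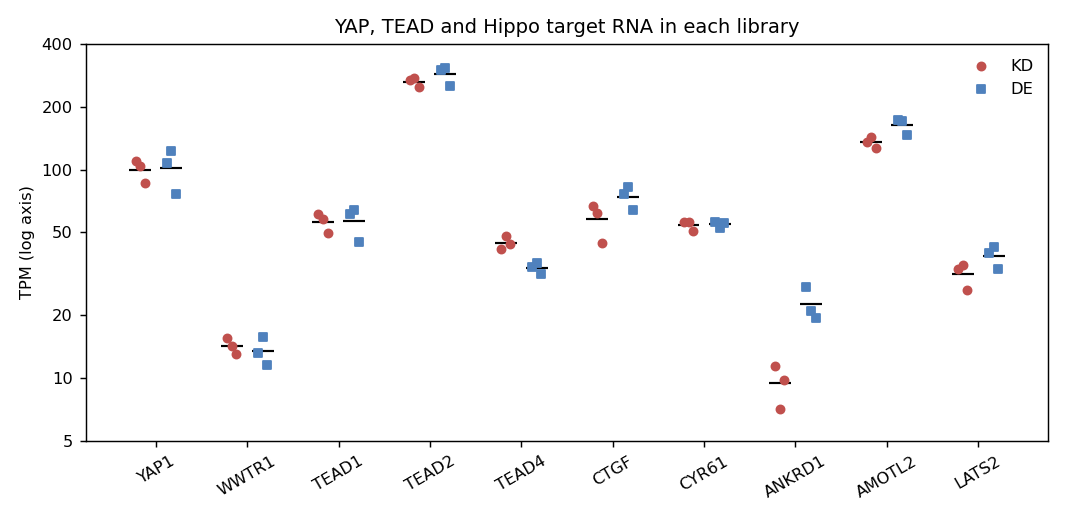
TPM of the 10 genes on a log axis, with a circle for each KD library, a square for each DE library and a line at each group's mean (n = 3 each). ANKRD1 sits between 7.14 and 11.5 TPM in KD, below all DE libraries, and TEAD4 between 41.5 and 48.2 TPM in KD, above all DE libraries, while YAP1, WWTR1, TEAD1 and CYR61 overlap.

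YAP1, the more abundant coactivator, had 110.3, 104 and 86.2 TPM in KD and 107, 123 and 76.4 TPM in DE. The groups overlapped, and the third library was the lowest in each. The mean was 100.02 ± 12.4 TPM in KD and 102 ± 23.7 TPM in DE (SD, n = 3 each), a log2 change of -0.01 (95% interval -0.45 to 0.42, limma adjusted p = 0.994). WWTR1 had 15.6, 14.3 and 13.05 TPM in KD and 13.2, 15.8 and 11.5 TPM in DE, again with overlap (log2 change 0.09, 95% interval -0.25 to 0.42, limma adjusted p = 0.894). WWTR1 made up 12.6% ± 0.522 of the summed YAP1 and WWTR1 TPM in KD and 11.8% ± 1.15 in DE (SD, n = 3 each), and the share overlapped between the groups (2-sided exact permutation p = 0.3, where 3 against 3 libraries cannot go below 0.1). In GENCODE 29, 9.97% of the exon length of YAP1 and 9.45% of that of WWTR1 are shared with genes on the other strand, and whether reads were counted by strand was not given in the sources used here.

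Among the TEAD factors, TEAD2, known from the early mouse embryo, was the most abundant of all 10 genes. It had 268, 274 and 248 TPM in KD and 299, 308 and 252 TPM in DE. The lowest DE library, the third, lay within the KD range. The log2 change was -0.12 (95% interval -0.36 to 0.13, limma adjusted p = 0.745), and it lay between -0.061 without DE replicate 2 and -0.20 without DE replicate 3. TEAD1, a broadly expressed factor, had 61.4, 57.9 and 49.7 TPM in KD and 61.4, 64.3 and 44.96 TPM in DE, and the groups overlapped (log2 change -0.0024, 95% interval -0.37 to 0.37, limma adjusted p = 0.998). TEAD3, the paralog that is not among the 10, averaged 68.3 TPM in KD and 69.0 TPM in DE (limma adjusted p = 0.984).

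TEAD4, known for its part in the trophectoderm of the mouse embryo, had 41.5, 48.2 and 44.2 TPM in KD and 34.1, 35.7 and 31.8 TPM in DE. Every KD library lay above every DE library. The mean was 44.6 ± 3.35 TPM in KD and 33.8 ± 1.96 TPM in DE (SD, n = 3 each). The log2 change was 0.39 (SE 0.101, 95% interval 0.15 to 0.63), with a limma adjusted p of 0.101 that missed the threshold. TEAD4 passed with the replicate block (limma adjusted p = 0.0171) with TPM recomputed without mitochondrial genes (limma adjusted p = 0.0313) and with median-ratio scaling (limma adjusted p = 0.04997).

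In the make-up of TEAD RNA, which does not depend on how libraries are scaled, the groups differed in range for TEAD2 and TEAD4. TEAD2 made up 61.3%, 61.0% and 60.4% of the summed TPM of TEAD1 to TEAD4 in KD and 64.2%, 64.3% and 64.0% in DE. The means were 60.9% ± 0.465 in KD and 64.2% ± 0.186 in DE (SD, n = 3 each), a difference of -3.31 percentage points. TEAD4 made up 9.48%, 10.7% and 10.8% in KD and 7.32%, 7.45% and 8.05% in DE. Neither share overlapped between the groups, and the 2-sided exact permutation p of each was 0.1, the smallest that 3 against 3 libraries allow. Both are parts of the same sum, so a larger TEAD4 share lowers that of TEAD2, and they are not separate results. Of all single genes tested, 20.8% had no overlap either as deposited, and 29.8% had none with TPM recomputed without mitochondrial genes. The shares of TEAD1 (13.0% in KD and 12.7% in DE) and TEAD3 (15.8% in KD and 15.5% in DE) overlapped. Summed TEAD RNA was 433 ± 20.3 TPM in KD and 446 ± 45.2 TPM in DE (SD, n = 3 each), with overlap (exact permutation p = 0.7). Of the exon length of TEAD2 in GENCODE 29, 10.7% is shared with CD37 on the other strand.

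**Figure D2:**
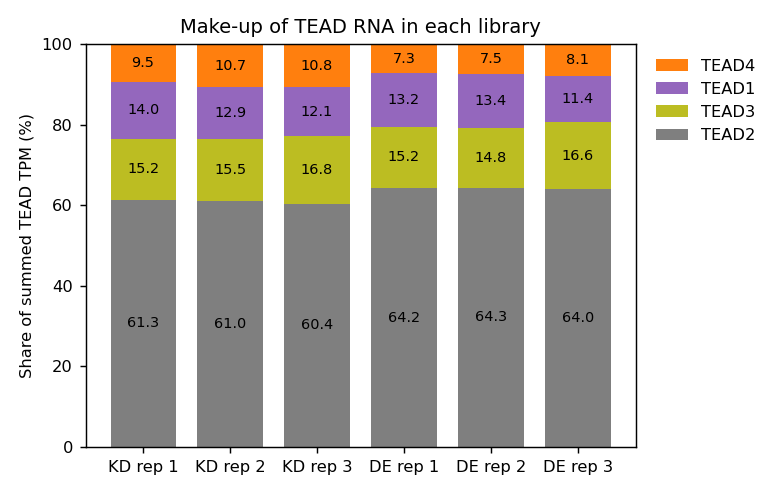
Share of each TEAD factor, in percent of the summed TPM of TEAD1 to TEAD4, as 1 stacked bar per library. TEAD2 (grey) stands between 60.4% and 61.3% in KD and between 64.0% and 64.3% in DE, and TEAD4 (orange) is larger in each KD bar than in any DE bar.

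ANKRD1, a cardiac ankyrin repeat protein and a widely used readout of YAP and TEAD activity, fell in KD. It had 11.5, 7.14 and 9.82 TPM in KD and 27.4, 20.9 and 19.6 TPM in DE. The highest KD library lay below the lowest DE library. The mean was 9.47 ± 2.19 TPM in KD and 22.6 ± 4.19 TPM in DE (SD, n = 3 each), a KD to DE ratio of 0.419. The log2 change was -1.18 (SE 0.195, 95% interval -1.64 to -0.72), and 0.469% of genes tested had a lower one (limma adjusted p = 0.0245). About 128, 92 and 157 reads stood behind the KD values and 388, 266 and 250 behind the DE values. The fall did not pass without KD replicate 2 (log2 change -1.01, limma adjusted p = 0.0942), KD replicate 3 (-1.22 and 0.0606), DE replicate 1 (-1.04 and 0.104) or DE replicate 2 (-1.23 and 0.0749), nor with no filter on low genes (limma adjusted p = 0.0699). It passed without KD replicate 1 (limma adjusted p = 0.0486) and without DE replicate 3 (0.0354).

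CTGF and CYR61 encode secreted matricellular proteins of the CCN family and are the usual companions of ANKRD1 as YAP readouts. CTGF had 67.03, 62.03 and 44.5 TPM in KD and 76.7, 82.1 and 64.1 TPM in DE. The ranges overlapped through the highest library of KD and the lowest of DE. The mean was 57.9 ± 11.8 TPM in KD and 74.3 ± 9.26 TPM in DE (SD, n = 3 each), a log2 change of -0.37 (95% interval -0.77 to 0.04) that did not pass (limma adjusted p = 0.383) and passed with the replicate block (limma adjusted p = 0.0315). Without KD replicate 3 the log2 change of CTGF was -0.19. CYR61 had 56.4, 56.3 and 50.6 TPM in KD and 56.4, 52.7 and 55.4 TPM in DE. The groups overlapped, with a log2 change of -0.01 (95% interval -0.23 to 0.20, limma adjusted p = 0.988). Of the exon length of CTGF, 8.34% is shared with AL133346.1 on the other strand. The ratio of CTGF to CYR61 averaged 1.06 ± 0.160 in KD and 1.36 ± 0.202 in DE (SD, n = 3 each), with overlap (2-sided exact permutation p = 0.2). Other members of the family were low. NOV had 1.06, 0.632 and 0.926 TPM in KD and 2.09, 2.74 and 2.20 TPM in DE (log2 change -0.84, limma adjusted p = 0.0578, and 0.0470 with the replicate block), and entered the test through its DE level, while WISP1, WISP2 and WISP3 stayed under the filter.

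AMOTL2, an angiomotin that binds YAP at junctions, and LATS2, a kinase that phosphorylates YAP, are the restraints among the 10 genes. AMOTL2 had 135, 144 and 128 TPM in KD and 172, 170.4 and 146 TPM in DE. The groups did not overlap, although the highest KD library and the lowest DE library were close. The mean was 135 ± 8.02 TPM in KD and 163 ± 14.4 TPM in DE (SD, n = 3 each), a log2 change of -0.26 (95% interval -0.50 to -0.03) that did not pass (limma adjusted p = 0.268, and 0.0314 with the replicate block). LATS2 had 33.4, 34.98 and 26.5 TPM in KD and 40.1, 42.7 and 33.4 TPM in DE, and its ranges overlapped. The log2 change was -0.29 (95% interval -0.63 to 0.05, limma adjusted p = 0.427, and 0.0313 with the replicate block). Without KD replicate 3 it was -0.17. LATS1, its paralog, averaged 20.1 ± 1.60 TPM in KD and 18.8 ± 2.49 TPM in DE (SD, n = 3 each), a log2 change of 0.10 (limma adjusted p = 0.856).

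**Figure D3:**
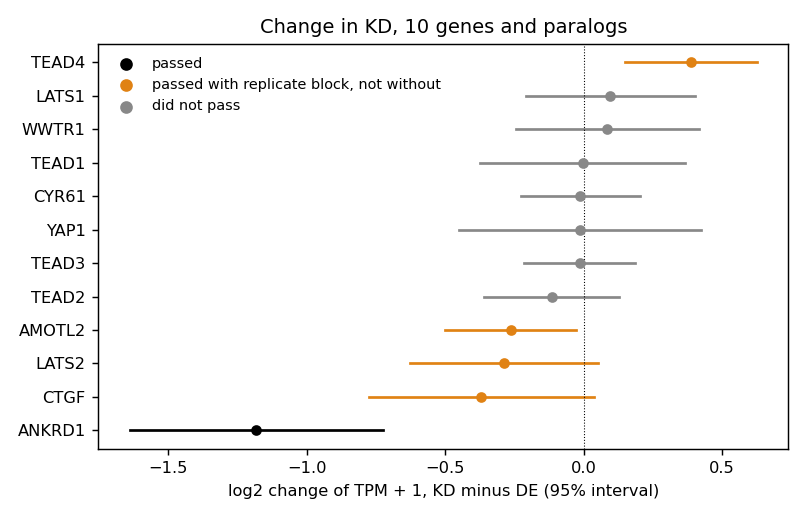
Log2 change of TPM + 1 in KD relative to DE with its 95% interval for the 10 genes and for the paralogs TEAD3 and LATS1. ANKRD1 (black) passed the test, TEAD4, AMOTL2, LATS2 and CTGF (orange) passed with the replicate block and not without it, and the others (grey) did not pass.

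The third libraries, with the largest mitochondrial share of each group, also had the lowest TPM of most of the 10 genes. As deposited, KD replicate 3 was the lowest KD library for 8 of the 10 genes and DE replicate 3 the lowest DE library for 9, both at once for 7. With TPM recomputed without mitochondrial genes both were lowest for 4, namely YAP1, TEAD1, CTGF and LATS2. On that scale CTGF had 93.5, 87.1 and 69.8 TPM in KD and 107, 109 and 103 TPM in DE, without overlap. LATS2 likewise separated, at 46.6, 49.1 and 41.6 TPM in KD and 56.1, 56.6 and 53.98 TPM in DE. TEAD2 had 374, 385 and 388 TPM in KD and 418, 408 and 407 TPM in DE, again without overlap. With ANKRD1, AMOTL2 and TEAD4, that made 6 of the 10 without overlap, beside 29.8% of all genes on this scale, while YAP1, WWTR1, TEAD1 and CYR61 still overlapped. CTGF, LATS2 and TEAD2 did not pass on it (limma adjusted p = 0.0993, 0.0730 and 0.240). CYR61 averaged 79.02 ± 0.402 TPM in KD and 79.4 ± 9.83 TPM in DE (SD, n = 3 each). On this scale limma called ANKRD1, AMOTL2 and TEAD4 among the 10, and 9.62% of all genes.

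**Figure D4:**
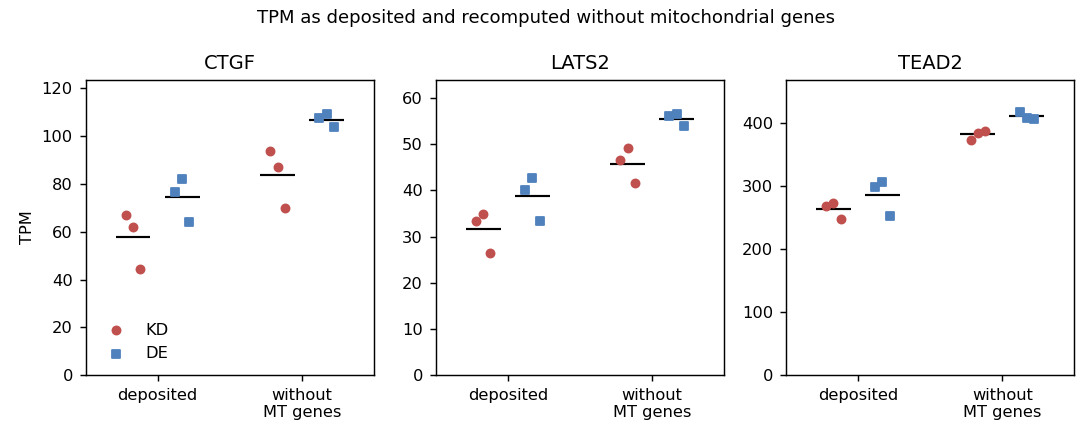
TPM of CTGF, LATS2 and TEAD2 as deposited (left pair) and recomputed without mitochondrial genes (right pair), KD as circles and DE as squares, with a line at each mean (n = 3 each). The ranges overlap as deposited and separate after recomputing, for example 69.8 to 93.5 TPM in KD against 103 to 109 TPM in DE for CTGF.

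In order of level, TEAD2, AMOTL2 and YAP1 led in KD and in DE. In KD the order went on with CTGF, TEAD1 and CYR61, each overlapping the next in its range over libraries, and then TEAD4, LATS2, WWTR1 and ANKRD1 without overlap between neighbours. In DE, YAP1 overlapped CTGF, CTGF overlapped TEAD1, TEAD1 overlapped CYR61, and LATS2 overlapped TEAD4. ANKRD1 stood below WWTR1 in every KD library and above it in every DE library. The spread between libraries of a group was widest for ANKRD1 in KD (coefficient of variation 23.1%) and for YAP1 in DE (23.1%), and narrowest for TEAD2 in KD (5.29%) and CYR61 in DE (3.51%).

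A wider set of 22 genes, a signature of YAP and TAZ targets defined across human cancers, holds 5 of the 10 and passed in both directions. Of 18 members tested, RBMS3 rose and ANKRD1 fell, 11.1% beside 3.27% of all genes, and the median log2 change was 0.0090, with 9 members above 0 and 9 below. RBMS3, an RNA-binding protein, had 3.84, 4.03 and 3.08 TPM in KD and 1.54, 1.93 and 1.32 TPM in DE (log2 change 0.84, limma adjusted p = 0.0466). With any 1 library left out RBMS3 did not pass, with limma adjusted p between 0.0746 and 0.214, nor with no filter (0.141). MYOF, a membrane repair protein, had 9.75, 8.23 and 7.90 TPM in KD and 14.1, 13.9 and 10.9 TPM in DE (log2 change -0.53, limma adjusted p = 0.110, and 0.0170 with the replicate block), while DOCK5, a Rac activator, averaged 4.34 TPM in KD and 2.86 TPM in DE (log2 change 0.47, limma adjusted p = 0.128). Fitted with the block, 3 members rose, F3, RBMS3 and FOXF2, and 6 fell, AMOTL2, CTGF, ARHGEF17, ANKRD1, MYOF and LATS2, beside 5.88% of all genes higher and 6.62% lower with the block. F3, FOXF2 and ARHGEF17 were named after their values were seen. F3, the tissue factor that starts coagulation, had 56.2, 59.4 and 44.6 TPM in KD and 43.2, 41.6 and 32.4 TPM in DE, without overlap (log2 change 0.44, limma adjusted p = 0.218, and 0.00838 with the replicate block). IGFBP3, CCDC80, NT5E and TGFB2 stayed under the filter.

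**Figure D5:**
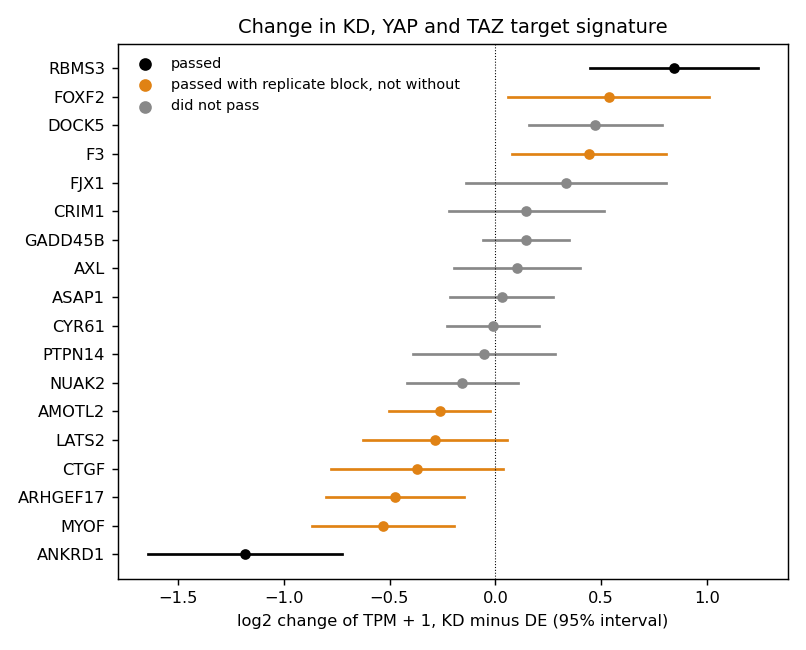
Log2 change of TPM + 1 in KD relative to DE with its 95% interval for the 18 tested members of the YAP and TAZ target signature. Changes run from -1.18 for ANKRD1 to 0.84 for RBMS3, with 9 members on each side of 0.

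Upstream of YAP, 31 regulators of the Hippo cascade (kinases, scaffolds, angiomotins and atypical cadherins) were all tested, and 1 passed, 3.23% of the list beside 3.27% of all genes. DCHS1, an atypical cadherin that is the ligand of FAT4, fell in KD, with 11.98, 11.5 and 11.7 TPM in KD and 20.4, 20.5 and 17.2 TPM in DE (log2 change -0.68, SE 0.111, limma adjusted p = 0.0240). It did not pass without KD replicate 1, 2 or 3 or without DE replicate 1 or 2, with limma adjusted p between 0.0749 and 0.141, nor with no filter (0.0554). The angiomotins differed in sign. AMOTL1 had 79.6, 83.5 and 75.4 TPM in KD and 69.6, 70.5 and 58.2 TPM in DE, without overlap (log2 change 0.27, limma adjusted p = 0.292, and 0.0400 with the replicate block). AMOT averaged 2.23 TPM in KD and 3.22 TPM in DE (log2 change -0.38, limma adjusted p = 0.289). The list's median log2 change was 0.0044, with 17 members above 0 and 14 below. With the replicate block 1 rose, AMOTL1, and 4 fell, AMOTL2, DCHS1, LATS2 and AJUBA, the last named after its values were seen. These 5 are 16.1% of the list, beside 12.5% of all genes with the block.

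Of 5 other partners of TEAD and YAP, TEAD3, VGLL3 and VGLL4 were tested and limma called 0 of them, 1 having an unadjusted p under 0.05. That gene was VGLL3, a TEAD cofactor, at 1.73, 1.78 and 1.34 TPM in KD and 0.580, 1.06 and 0.441 TPM in DE (log2 change 0.64, limma adjusted p = 0.187), near the filter and entering the test mainly through its KD level. VGLL4, a corepressor that competes with YAP for TEAD factors, averaged 15.8 ± 1.38 TPM in KD and 16.3 ± 2.25 TPM in DE (SD, n = 3 each; limma adjusted p = 0.968).

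CTGF, CYR61 and ANKRD1 are known to answer to other inputs too, and genes of those inputs were read in the same test. Of 18 tested genes of actin and SRF, ACTG2, a smooth muscle actin, rose, with 6.33, 4.63 and 3.86 TPM in KD and 1.504, 2.04 and 1.75 TPM in DE (log2 change 1.09, limma adjusted p = 0.0305). Its call is 5.56% of the tested list, beside 3.27% of all genes. ACTG2 did not pass without any 1 library other than KD replicate 3, with limma adjusted p between 0.0564 and 0.141. The tropomyosins TPM1 and TPM2 averaged 38.99 and 63.7 TPM in KD and 51.3 and 78.7 TPM in DE, and passed with the replicate block (limma adjusted p = 0.0141 and 0.0204) and not without it (0.0909 and 0.132). With the block 22.2% of the 18 passed, beside 12.5% of all genes. Limma called 0 of 11 direct targets of TGF-beta and Activin, beside 3.27% of all genes. Of the 11, 3 had an unadjusted p under 0.05, with 2 higher and 1 lower. LEFTY2, a Nodal antagonist, averaged 233 ± 54.1 TPM in KD and 363 ± 66.97 TPM in DE (SD, n = 3 each), a log2 change of -0.65 (limma adjusted p = 0.159, and 0.0172 with the replicate block). With the block 36.4% of these 11 targets passed, beside 12.5% of all genes.

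Markers of cell states were read beside the 10 genes. The summed TPM of the endoderm markers ran from 19949 to 21792 in KD and from 26796 to 30748 in DE, and that of the pluripotency markers from 3908 to 4440 in KD and from 2994 to 3791 in DE. CER1 alone averaged 16815 TPM in KD and 23570 TPM in DE, so the endoderm sum mostly follows CER1. POU5F1 averaged 1247 TPM in KD and 682 TPM in DE, so the higher pluripotency sum in KD mostly follows POU5F1. LIN28A, at 1006 TPM in KD and 1013 TPM in DE, and TDGF1, at 624 and 724 TPM, were not higher in KD. Trophoblast and amnion markers summed to between 53.6 and 57.1 TPM in KD and between 69.1 and 73.9 TPM in DE. GATA3 had 19.2, 14.5 and 17.4 TPM in KD and 42.3, 35.9 and 43.1 TPM in DE. The lower sum in KD thus mostly follows GATA3 and does not describe the list as a whole. TFAP2C ran the other way, with an average of 22.3 TPM in KD and 13.2 TPM in DE. Of the 12 trophoblast and amnion markers, 5 were tested. GATA2 and TFAP2C rose and GATA3 and HAND1 fell, HAND1 having entered the test through its DE level. CGB5 was listed at 0 in all 6 libraries. Mesoderm and endothelial markers summed to between 142 and 149 TPM in KD and between 89.3 and 112 TPM in DE. Most of this sum was KDR, which averaged 122 TPM in KD and 83.9 TPM in DE. Of 10, 3 were tested, and KDR and TBX5 rose. Mesenchymal and fibroblast markers summed to between 103 and 118 TPM in KD and between 82.1 and 103 TPM in DE. Of 13, 7 were tested, and THY1, which stem cells also carry, rose. Without THY1 the sum ran the other way, between 57.7 and 79.9 TPM in KD and between 67.6 and 91.4 TPM in DE, with overlap. The calls were 80% of the tested trophoblast and amnion markers and 66.7% of the tested mesoderm and endothelial markers. For the mesenchymal and fibroblast markers they were 14.3%, all beside 3.27% of all genes. Of the 17 markers called here, 15, all but SOX2 and THY1, missed the threshold without at least 1 of the libraries. The part of these markers in the results for ANKRD1 and TEAD4 was not tested, and in bulk RNA fewer cells of a type and less RNA per cell cannot be told apart.

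The genes whose level over the 6 libraries lay nearest to that of CTGF, among 9401 tested genes with a mean of at least 10 TPM, were TMEM14A, RGS16 and CCS, with root mean squared differences of the centred log2 values of 0.0419, 0.0421 and 0.0439. None of these 3 passed (limma adjusted p between 0.334 and 0.516). They were picked for likeness to CTGF over both groups, and CTGF did not pass (limma adjusted p = 0.383), so this is no separate result. Those nearest to CYR61 were FLVCR1-AS1, HSF1 and TMUB1, with differences of 0.0209, 0.0231 and 0.0248.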

How the data were processed

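The authors deposited TPM of 58830 genes in 1 table, per the file headers, and each of its 6 columns sums to 1000000. GRCh38 is the build, and HISAT2 2.1.0, featureCounts and DESeq2 the tools, that appear in the submitters' processing notes, with no role stated. Annotation, strand setting and filters were not given in the sources used here. In 28 rows the symbol had turned into a date; these stayed in the test and are not named.

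A gene was tested where 3 or more libraries had 1 TPM or more, on log2(TPM + 1), which understates the change of low genes, with limma 3.58.1 in R 4.3.3 (group as the term, eBayes with trend, 2-sided, Benjamini-Hochberg over all genes tested, threshold 0.05). RNA shares had a 2-sided exact permutation test (scipy 1.17.1). Reads were estimated from 37138 rows matched to GENCODE 29 exon lengths, as multiples of 1 constant per library, with between 88.2% and 88.9% of values under 50 reads within 0.02 of a whole number. Promoters are RefSeq's.

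The 10 genes, the lists and the alternatives were chosen with earlier results of these data known. Named were the 10 genes, TEAD3, LATS1, GATA6-AS1, GATA6, 6 cell-state markers, of each list the genes past the threshold up to 6 and others by smallest p up to 4, and the 3 nearest profiles of CTGF and CYR61. Some of these carry no sentence of their own, and 1 is not reported here.

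The titles give replicate numbers from 1 to 3 in either group. With group means removed, same-numbered KD and DE libraries correlated over genes at 0.108, 0.144 and 0.347, above the limit of 0.1, so the number was also fitted as a block. KD replicate 1 and DE replicate 2 correlated at 0.121, so this pairing comes from the data and not from a label.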

Additional observations from a re-analysis of the deposited data

How the results depend on the processing

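Over 18 alternative settings each, the 10 genes gave 180 values, of which 150 kept their direction and side of the threshold, 11 newly passed, 6 lost their call, all of ANKRD1, and 13 changed sign, all of YAP1, WWTR1, TEAD1 or CYR61. The count of all genes called was 579 of 17711 tested, and 17711 were tested where no other number is given. It was 239 of 36978 with no filter, 1735 with quantile normalization, 1753 with median-ratio scaling and 1700 of 17676 without mitochondrial genes. It was 2215 with the replicate block, 1212 without the third library of both groups and 106 at an adjusted p of 0.01. In the same order of settings the 10 genes had 0, 3, 3, 3, 5, 2 and 0 calls, and the 31 Hippo regulators 0, 6, 5, 4, 5, 2 and 0. The target signature had 0 of 22 with no filter and then 8, 7, 7, 9, 6 and 0 of 18. With a mean of 5 TPM the signature had 1 of 14, beside 489 of 11763 genes. Leaving out 1 library gave between 87 and 610 calls over all genes, 0 to 1 among the 10, 0 to 1 among the regulators and 0 to 2 in the signature, each from 5 libraries. Without DE replicate 3 the median log2 change of all genes was -0.10.

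ANKRD1 kept a log2 change between -1.32 and -1.01, and TEAD4 between 0.33 and 0.44, without any single library. LATS2 also passed with quantile normalization (limma adjusted p = 0.0389) and median-ratio scaling (0.0408), and AMOTL2 with quantile normalization (0.0293), without mitochondrial genes (0.0360) and without the third library of both groups (0.0469). The TEAD2 share differed by between -3.52 and -3.06 percentage points and the WWTR1 share by between 0.306 and 1.40. TEAD1 changed sign with median-ratio scaling (log2 change 0.0062) and without mitochondrial genes (0.0097), CYR61 without mitochondrial genes (0.00060) and without the third library of both groups (0.048). Without 1 library the log2 change lay between -0.21 and 0.13 for YAP1, -0.48 and -0.19 for CTGF, -0.39 and -0.17 for LATS2, -0.34 and -0.22 for AMOTL2, -0.20 and -0.061 for TEAD2, -0.014 and 0.20 for WWTR1, -0.16 and 0.093 for TEAD1, -0.039 and 0.040 for CYR61, -0.052 and 0.0067 for TEAD3, -0.0082 and 0.17 for LATS1 and -0.14 and 0.05 for VGLL4. In the last 150 bases before the start, 28.6% of the 7 promoters held GGAATG, in place of 42.9%, beside 7.09% of all promoters. For TGANTCA it was 0%, in place of 14.3%, beside 4.14% of all promoters. The cause of these differences was not tested. Depth limits ANKRD1 most of the 10, with 92 to 157 estimated reads in KD.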
